A study of Mus musculus with 30 samples.

Results

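Endoderm regulators and markers of the extraembryonic endoderm were read on expression arrays of mouse embryonic stem cells (ESCs). The genes are Gata4, Gata6, Sox17, Sox7, Foxa2, Dab2, Amn, Cubn and Pdgfra, 9 in all. A row of the array file was taken where its gene symbol equalled a member's name. Of the 9 genes 8 have a row, with 13 of 25697 probes and 8 of 18097 gene symbols. Cubn has no row under that symbol and gives no value. Probes with a detection p-value under 0.05 on at least 3 of the 30 arrays were tested, which left 8 of the 13 member probes and 7 genes, against 15151 probes and 11177 genes in the whole file. Of the probes not tested, 5 were detected on none of the 30 arrays. Both Foxa2 probes are among these, so Foxa2 was undetected throughout.

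The study asked which phosphorylation regulators ESCs need for self-renewal. Rescue clones were made in Ainv15, a mouse ESC line that expresses rtTA, the activator that doxycycline (Dox) switches on, from a lentivirus with an shRNA against a regulator and a Dox-inducible copy of it to which that shRNA is blind. The clones are named for Bub1b (Bub1b_R), Chek1 (Chek1_R), Ppm1g (Ppm1g_R) and Ppp2r1b (Ppp2r1b_R), and Ctrl_R is the control; the first 4 are called the regulator clones below. Each was profiled with 1 µg/ml Dox and 5 days after its withdrawal, on 3 arrays for each of the 10 conditions. All carry rtTA, were maintained on mouse embryonic fibroblasts in medium with LIF, and were profiled without feeders. Which of the clones established for a gene was on the arrays is not given in the sources used here, so a clone and its gene cannot be told apart. The sample labels do not say whether the 3 arrays of a condition came from separate cultures, and the study's methods speak only in general of repeated experiments, so p-values measure the spread between arrays, which may be technical. The precision of every value is limited by this number of arrays.

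Gata6 and Gata4 are zinc finger factors, and Sox17 and Sox7 are HMG box factors, that direct ESCs or cells of the inner cell mass towards primitive endoderm, the source of the visceral and parietal endoderm of the yolk sac. Foxa2 is a forkhead factor of the visceral and definitive endoderm and of the node. Pdgfra, the receptor for PDGF ligands, marks primitive endoderm and also mesoderm and fibroblasts. Dab2 is a clathrin adaptor that sorts receptors of the LDL receptor family, and Amn holds the receptor Cubn at the apical membrane of visceral endoderm.

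RefSeq promoters (build GRCm38.p6) were at hand for 5 of the 9 members. The 250 bases before a transcription start are shown for the 3 members that were detected in ESCs and whose withdrawal changes differed between clones, as the sequences to read beside the factors named above. Capitals mark GATAA, the core letters that GATA factors bind. Each sequence lies on the plus strand and is written 5′ to 3′. They span chr15:6299539-6299788 for Dab2, chr12:111270846-111271095 for Amn and chr5:75152001-75152250 for Pdgfra.
Dab2: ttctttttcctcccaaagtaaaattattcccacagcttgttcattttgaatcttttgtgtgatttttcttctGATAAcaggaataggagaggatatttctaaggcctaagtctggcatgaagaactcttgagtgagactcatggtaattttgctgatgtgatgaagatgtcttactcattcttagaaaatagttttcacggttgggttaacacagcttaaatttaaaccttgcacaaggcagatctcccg
Amn: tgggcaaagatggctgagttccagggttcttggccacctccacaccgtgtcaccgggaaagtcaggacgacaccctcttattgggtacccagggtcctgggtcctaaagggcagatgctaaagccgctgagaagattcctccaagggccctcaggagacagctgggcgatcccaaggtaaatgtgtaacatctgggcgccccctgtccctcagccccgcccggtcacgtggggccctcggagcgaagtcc
Pdgfra: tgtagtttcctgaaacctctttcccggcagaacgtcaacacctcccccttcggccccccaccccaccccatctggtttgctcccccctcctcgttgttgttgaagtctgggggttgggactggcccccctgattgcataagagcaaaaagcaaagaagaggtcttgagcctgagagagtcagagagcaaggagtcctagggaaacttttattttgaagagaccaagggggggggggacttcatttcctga
Short motifs of the GATA, FOX and SOX families were searched on both strands, and none of these motifs contains another. The GATA motif is GATAA, which stands once in the Dab2 window, 178 bases before the start, and in 22.6% of the 32851 promoters of this length. It is not in the window of the other Dab2 start, nor in those of Amn, Pdgfra and Cubn, and of the 3 Foxa2 starts 1 holds it, 182 bases before the start. The letters TGTTTAC, for FOX factors such as Foxa2, stand in 3.17% of promoters and in none of the 8 member windows. For SOX factors the letters were ATTGTT, in 9.42% of promoters and again in none of the 8. The Dab2 window is poorer in G and C (36.8%) than those of Amn (61.2%) and Pdgfra (54.4%).

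The arrays fell into 2 sets by signal. Bub1b_R and Ctrl_R, with 12 arrays, had a lowest detected signal of 12.9 to 20.9, and the 18 arrays of the other 3 clones one of 27.8 to 58.1. A level difference between clones of different sets therefore cannot be told apart from the set, and only changes within a clone, differences between such changes, and Bub1b_R against Ctrl_R were tested. The Ctrl_R samples carry records of an earlier deposit than the other clones, and whether their arrays were run beside those of Bub1b_R is not given in the sources used here. A level difference between Bub1b_R and Ctrl_R therefore cannot be told apart from the deposit, while each change on Dox withdrawal was taken within 1 clone. Levels below are log2 intensities after normalization with limma's neqc, which equalizes the distributions of the 30 arrays.

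The targeted mRNAs were read as a check of the labels. Ppm1g stood at 9.76, 9.76 and 9.82 with Dox and at 8.61, 8.40 and 8.59 without it in Ppm1g_R (−1.25 log2, adjusted p 4.5e-09 by limma). Bub1b stood at 9.82, 9.84 and 9.87 with Dox and at 9.72, 9.64 and 9.75 without it in Bub1b_R (−0.14, adjusted p 0.217). Ppp2r1b stood at 6.23, 6.20 and 5.84 with Dox and at 6.16, 6.49 and 6.21 without it in Ppp2r1b_R (0.20, adjusted p 0.365). Of these mRNAs Ppm1g alone showed a drop past the threshold. Bub1b averaged 10.37 in Ctrl_R without Dox, above both Bub1b_R conditions, a level difference that cannot be told apart from the deposit. Chek1 was detected on 0 of 3 arrays with Dox (5.32, 5.20 and 5.40) and on 3 of 3 without it (6.08, 6.24 and 5.72), the opposite of the label. The fitted rise was 0.71 (adjusted p 0.00115 by limma), past the threshold. The methods' t-test lost it (adjusted p 0.0568), and at an offset of 50 it was 0.43. That clone is therefore given as the Chek1_R-labelled arrays, by its label only. T, a streak gene, was higher without Dox by 4.44 on these arrays, the direction it had in the other regulator clones. The rescue copies of Bub1b and Chek1 lack the 3′ untranslated region and probe positions were not used here, so a probe there would not read the copy. Of the 9 ESC markers on a list (Pou5f1, Nanog, Sox2, Zfp42, Utf1, Esrrb, Tdgf1, Dppa5a and Tcl1), 9 were detected on all 30 arrays. On Dox withdrawal 2 of the 9 fell in Bub1b_R (Tcl1, −0.87 log2, and Utf1, −0.63), 1 on the Chek1_R-labelled arrays (Utf1, −0.80) and 4 in Ppp2r1b_R (Tcl1, −0.97, Esrrb, −0.83, Zfp42, −0.80, and Utf1, −0.68), and none was changed in Ppm1g_R or Ctrl_R by limma. The list's median change was −0.35 in Bub1b_R, −0.31 on the Chek1_R-labelled arrays, −0.27 in Ppm1g_R, −0.54 in Ppp2r1b_R and −0.16 in Ctrl_R. Taken minus the change in Ctrl_R, the median was −0.35 in Bub1b_R, −0.04 on the Chek1_R-labelled arrays, 0.01 in Ppm1g_R and −0.52 in Ppp2r1b_R, and 2, 2, 1 and 2 of the 9 were lower and none higher. Utf1 in Bub1b_R was short of 1.5-fold with arrays scaled to the same median (−0.58), and Zfp42 in Ppp2r1b_R missed the methods' t-test (adjusted p 0.0889). The part of these markers in the changes of the members was not tested.

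Detection differed widely among the members. Gata6, Amn and Dab2 (by both of its brighter probes) were detected on 30 of 30 arrays and Pdgfra on 22. Sox17 was detected on 13 arrays by its brighter probe, Gata4 on 7 and Sox7 on 3. The second probes of Sox17 and Sox7 and the third of Dab2 were detected on 0 arrays. Below detection, the second Sox17 probe stood at 4.92, 4.66 and 4.84 with Dox and at 5.25, 5.17 and 5.13 without it in Bub1b_R, the same direction as the brighter probe there. The second Sox7 probe, also below detection, stood at 4.88, 4.81 and 5.06 with Dox and at 5.41, 4.78 and 4.85 without it in Bub1b_R, overlapping groups, so it did not repeat the separation of the first probe described below. The lowest detection p of the Foxa2 probes was 0.264 and 0.234, and their log2 level stayed between 4.57 and 5.00 on every array.

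**Figure D1:**
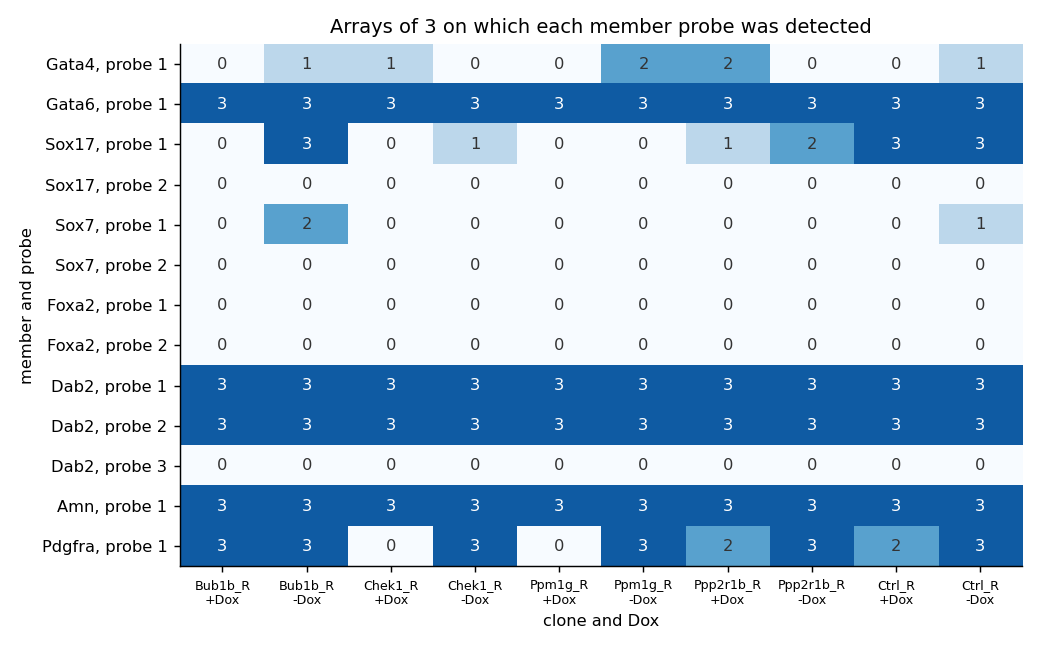
Number of arrays, of 3, on which each of the 13 member probes (rows) had a detection p under 0.05 in each clone and Dox condition (columns). Gata6, Amn and the first 2 Dab2 probes reached 3 in every condition, Pdgfra was at 0 with Dox on the Chek1_R-labelled arrays and in Ppm1g_R, and Foxa2 was at 0 everywhere.

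Of the 5 transcription factors among the members, Gata6, Sox17 and Sox7 rose on Dox withdrawal in Bub1b_R. Changes were fitted with limma over the 10 condition means. Below, changed means at least 1.5-fold with a Benjamini-Hochberg adjusted p, taken over 15151 probes, under 0.05, and each gene is read by its brightest probe. In Bub1b_R 4 of 7 tested member genes were higher without Dox (Gata6, Sox17, Sox7 and Pdgfra), where 2.94% of all probes were higher and 2.67% lower. Sox7 entered the test on 3 arrays, 2 of them Bub1b_R without Dox, so the filter itself leaned towards a difference there, and the count is 3 of 6 without it. On the Chek1_R-labelled arrays, 1 was higher (Pdgfra) and 1 lower (Amn), against 4.49% and 4.77% of all probes. In Ppm1g_R and in Ppp2r1b_R 1 was higher, Pdgfra in both, against 2.3% higher and 2.07% lower, and 2.77% higher and 2.05% lower, of all probes. In Ctrl_R none was changed (0 by limma and by the methods' t-test), against 0.706% higher and 0.396% lower. Gata6 had an unadjusted p under 0.05 there. Both Dab2 probes passed limma's adjusted p in Ctrl_R (0.00022 and 0.00415), short of 1.5-fold. The median change over the 7 genes was 0.59 in Bub1b_R, 0.17 on the Chek1_R-labelled arrays, 0.08 in Ppm1g_R, 0.18 in Ppp2r1b_R and 0.22 in Ctrl_R, beside medians over all tested probes of −0.01, −0.02, −0.01, −0.01 and 0. The Bub1b_R median is the value of Sox7 itself. Those on the Chek1_R-labelled arrays and in Ppm1g_R are values of Sox17, and that in Ctrl_R is the value of Gata4. All of these lay near or below detection, so the medians are a description.

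**Figure D2:**
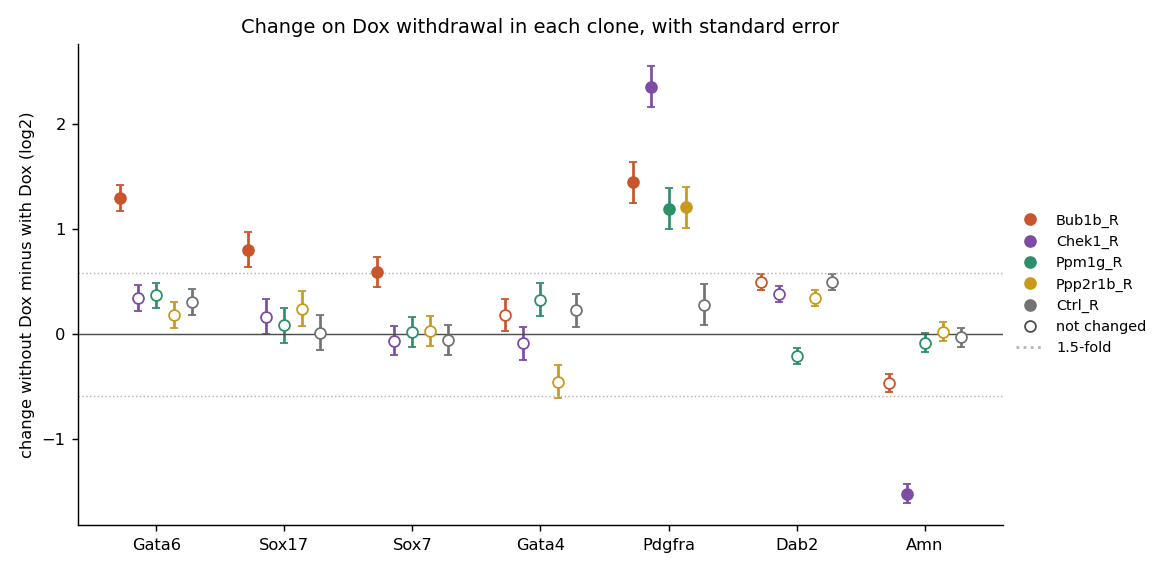
Change in log2 level on Dox withdrawal (vertical axis) for the brightest probe of the 7 tested members in each clone, with the standard error of the fit from 3 arrays per condition, filled where the gene changed. Pdgfra is filled in 4 clones (fitted values, in Ppm1g_R and on the Chek1_R-labelled arrays against undetected arrays with Dox), Gata6, Sox17 and Sox7 in Bub1b_R alone, and Amn on the Chek1_R-labelled arrays (−1.52). The Sox17 and Sox7 values in Bub1b_R are also fitted against undetected arrays with Dox.

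Gata6 rose in Bub1b_R and was short of the fold limit elsewhere. In Bub1b_R it stood at 7.24, 7.01 and 7.09 with Dox and at 8.45, 8.39 and 8.37 without it. Every array without Dox lay above every array with Dox, and the rise was 1.29 log2 or 2.45-fold (SE 0.12, adjusted p 2.33e-08). In the other clones the change was 0.35 on the Chek1_R-labelled arrays (adjusted p 0.0326), 0.37 in Ppm1g_R (adjusted p 0.0293), 0.18 in Ppp2r1b_R (adjusted p 0.29) and 0.30 in Ctrl_R (adjusted p 0.136), all short of 1.5-fold. The change in Bub1b_R exceeded that in Ctrl_R by 0.99 (SE 0.17, adjusted p 0.000382), and the change differed among the 4 regulator clones (limma's F-test, adjusted p 0.000126), a test that 24% of all probes passed. In bulk samples a change in RNA per cell and a change in the number of cells of a type cannot be told apart.

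The level that Gata6 rose from differed between Bub1b_R and Ctrl_R. With Dox, Ctrl_R stood at 7.85, 7.77 and 7.64, and Bub1b_R was 0.64 lower (adjusted p 0.000149). Without Dox, Ctrl_R stood at 8.06, 8.01 and 8.10, and Bub1b_R was 0.35 higher (adjusted p 0.0193), short of 1.5-fold. The order of the condition means ran from Bub1b_R without Dox (8.40 ± 0.04, SD, n = 3) through Ppp2r1b_R without Dox (8.27 ± 0.05), Ppp2r1b_R with Dox (8.09 ± 0.29), Ctrl_R without (8.06 ± 0.05) and with Dox (7.75 ± 0.11), the Chek1_R-labelled arrays without Dox (7.45 ± 0.23), Bub1b_R with Dox (7.11 ± 0.12), the Chek1_R-labelled arrays with Dox (7.10 ± 0.19) and Ppm1g_R without Dox (7.00 ± 0.17) to Ppm1g_R with Dox (6.63 ± 0.07). Of the 9 neighbouring pairs in this order, 4 had no overlap between arrays: the first, Ctrl_R without against with Dox, the Chek1_R-labelled arrays without Dox against Bub1b_R with Dox, and the last. This order crosses the array sets and is a description. The gap with Dox was short of 1.5-fold when arrays were scaled to the same median (−0.52) and at an offset of 50 (−0.53).

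**Figure D3:**
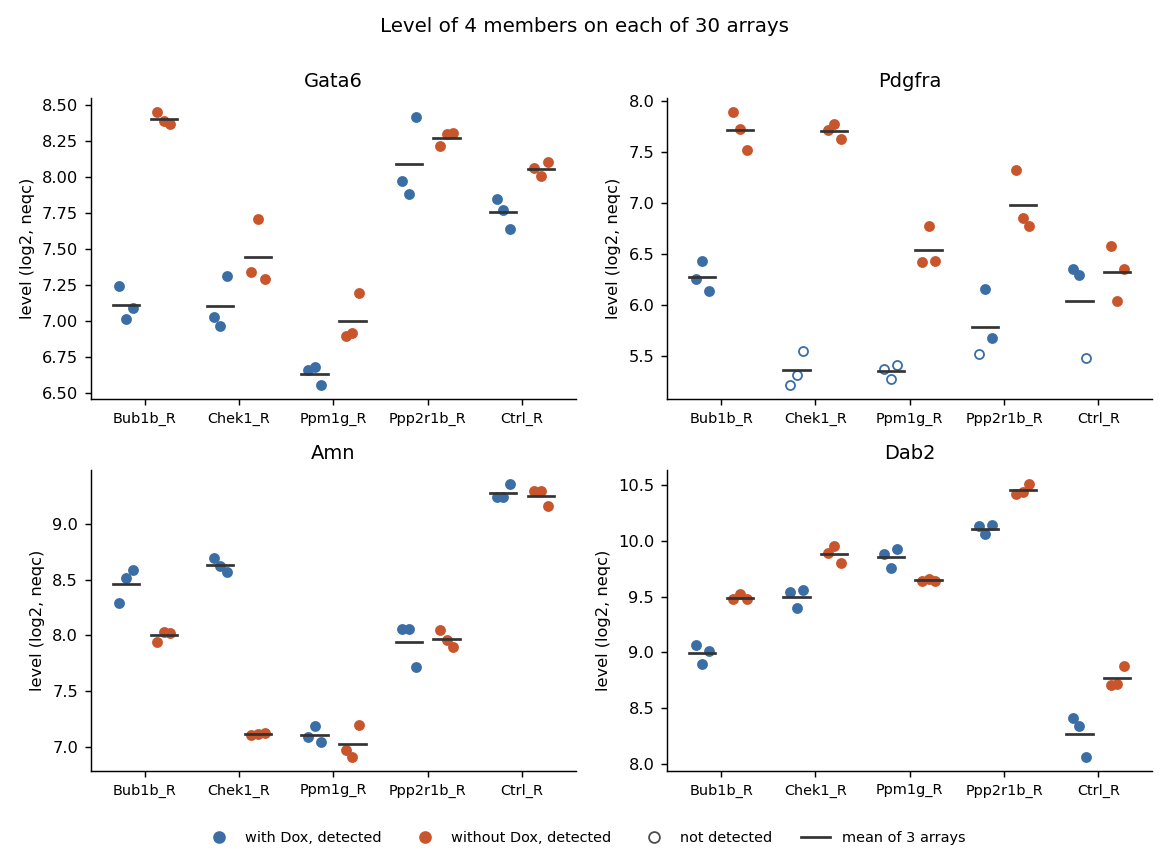
Log2 level (vertical axes, which differ between panels and do not start at 0) of Gata6, Pdgfra, Amn and Dab2 by its brightest probe on each of the 30 arrays, by clone, with Dox (blue) and without (orange); open circles were not detected and bars are means of 3 arrays. Gata6 separates widely in Bub1b_R, Pdgfra separates in the 4 regulator clones, Amn drops on the Chek1_R-labelled arrays, and Dab2 is higher without Dox in every clone except Ppm1g_R.

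Sox17 lay near the detection limit. In Bub1b_R it was detected on 0 of 3 arrays with Dox (5.25, 5.32 and 5.19) and on 3 of 3 without it (5.90, 6.28 and 5.96), a difference of at least 1.49-fold (adjusted p 8e-04, fitted means 5.25 and 6.05; at an offset of 50 the change was 0.48, short of 1.5-fold). This bound sets the mean without Dox against, on each array with Dox, the lowest detected signal or the probe's own, whichever is higher. Ctrl_R had it detected on 6 of 6 arrays, at 5.86, 5.84 and 5.61 with Dox and 5.96, 5.61 and 5.78 without it, so those arrays overlap. Without Dox the Bub1b_R and Ctrl_R levels overlapped (difference 0.27, adjusted p 0.189), and with Dox Ctrl_R was at least 1.23-fold higher (adjusted p 0.0145). The fitted difference with Dox, −0.52, was short of the fold limit, and without Ctrl_R with Dox replicate 3 it was −0.60 (adjusted p 0.0138) and past it. Ppm1g_R had it detected on 0 of 6 arrays, the Chek1_R-labelled arrays on 1 of 6 and Ppp2r1b_R on 3 of 6. Detection needed a higher signal in that array set than in Ctrl_R, so these counts cannot be set against the 6 of 6 there. The changes on withdrawal were 0.17 on the Chek1_R-labelled arrays, 0.08 in Ppm1g_R and 0.24 in Ppp2r1b_R, none past the test. The Bub1b_R change exceeded that of Ctrl_R by 0.79 (adjusted p 0.0288; 0.238 without background correction, and 0.47, short of 1.5-fold, at an offset of 50), and it did not pass for a difference among the 4 regulator clones (adjusted p 0.0803). Without any 1 of Bub1b_R with Dox replicates 1 and 3 and without Dox replicate 2, or Ctrl_R with Dox replicates 1 and 2 and without Dox replicates 2 and 3, the excess over Ctrl_R was 0.67 to 0.79 with adjusted p 0.0514 to 0.0862.

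Sox7, a close relative of Sox17, was detected on the fewest arrays of the members tested. In Bub1b_R it stood at 5.13, 4.78 and 4.69 with Dox, undetected, and at 5.44, 5.28 and 5.65 without it, detected on replicates 1 and 3. The groups did not overlap, and the fitted change was 0.59 log2 (SE 0.14, adjusted p 0.00301), barely past 1.5-fold. No lower bound on the fold above 1 follows, because the mean without Dox lies below the lowest detected level of the arrays with Dox. The only other array with Sox7 detected was Ctrl_R without Dox replicate 2 (5.40). The Chek1_R-labelled arrays, Ppm1g_R and Ppp2r1b_R ranged from 4.65 to 5.04, all undetected. The change was short of 1.5-fold without Bub1b_R with Dox replicate 2 (0.55) or 3 (0.50) or without Dox replicate 3 (0.49), with arrays scaled to the same median (0.50) and at an offset of 50 (0.30), and it missed the methods' t-test (adjusted p 0.104). Its excess over Ctrl_R (0.64, adjusted p 0.0356) did not pass without any 1 of Bub1b_R with Dox replicates 2 and 3 and without Dox replicates 1 and 3, or Ctrl_R with Dox replicates 2 and 3 and without Dox replicates 1 and 3 (0.50 to 0.65, adjusted p 0.0558 to 0.115), nor in a fit without the Chek1_R-labelled arrays (adjusted p 0.0674), with only the compared arrays in the fit (0.151), without background correction (0.196), with arrays scaled to the same median (0.0533), without the detection filter (0.0512) or by the methods' t-test (0.223). The change did not pass for a difference among the 4 regulator clones (adjusted p 0.0527).

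Gata4 was detected on 7 arrays scattered over 5 of the 10 conditions and on at most 2 of 3 arrays of any. Its levels ran from 4.98 to 6.01. In Ppp2r1b_R it stood at 6.01, 5.42 and 5.74 with Dox, detected on replicates 1 and 3, and at 5.23, 5.43 and 5.16 without it, undetected. Of the 9 array pairs 8 were lower without Dox, and the fitted change was −0.45 (adjusted p 0.0344), short of 1.5-fold, with at least 1.08-fold more signal with Dox. Without Ppp2r1b_R with Dox replicate 2 it was −0.60 (adjusted p 0.01) and counted as changed. The other changes were 0.18 in Bub1b_R, −0.09 on the Chek1_R-labelled arrays, 0.33 in Ppm1g_R and 0.22 in Ctrl_R, none past the test, while the change differed among the 4 regulator clones (F-test, adjusted p 0.0409). In Bub1b_R Gata4 was detected on 1 of 6 arrays, too close to background for a fold.

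**Figure D4:**
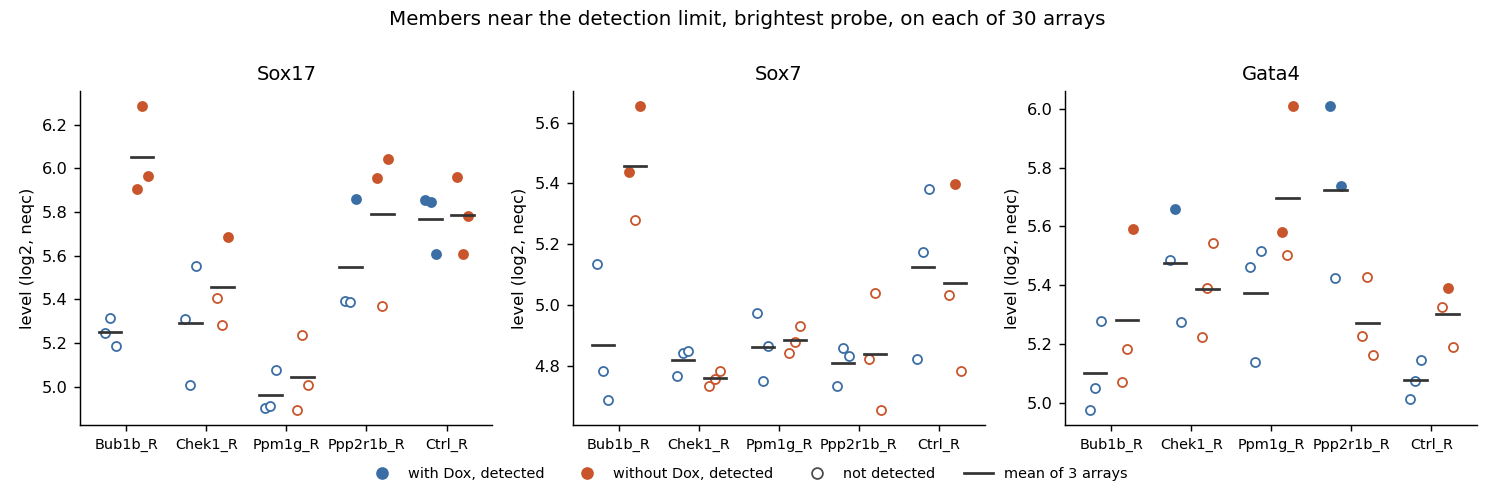
Log2 level (vertical axes, which differ between panels) of Sox17, Sox7 and Gata4 on each of the 30 arrays by clone, with Dox (blue) and without (orange); filled circles were detected, open ones were not, and bars are means of 3 arrays. In Bub1b_R the 3 Sox17 arrays without Dox are all detected and lie between 5.90 and 6.28, above the undetected arrays with Dox.

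Pdgfra was the member that rose on Dox withdrawal in each of the 4 regulator clones. On the Chek1_R-labelled arrays it was undetected with Dox (5.21, 5.31 and 5.55) and detected on 3 of 3 arrays without it (7.72, 7.78 and 7.63), at least 4.36-fold higher (adjusted p 1.26e-09). In Bub1b_R it rose from 6.26, 6.43 and 6.14 to 7.90, 7.72 and 7.52, by 1.44 log2 or 2.72-fold (SE 0.20, adjusted p 5.77e-06). In Ppm1g_R it was undetected with Dox (5.37, 5.27 and 5.41) and stood at 6.42, 6.78 and 6.43 without it, at least 1.92-fold higher (adjusted p 8.43e-05). The groups do not overlap in any of these clones. In Ppp2r1b_R it rose from 5.51 (undetected), 6.15 and 5.68 to 7.33, 6.85 and 6.77, by 1.20 log2 (adjusted p 8.18e-05), a call that the methods' t-test lost (adjusted p 0.0929). Ctrl_R stood at 6.35, 6.30 and 5.47 (undetected) with Dox and at 6.58, 6.03 and 6.35 without it, overlapping groups with a change of 0.28 (adjusted p 0.439).

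The change of Pdgfra exceeded that in Ctrl_R by 2.07 on the Chek1_R-labelled arrays (SE 0.28, adjusted p 6.83e-06), 1.16 in Bub1b_R (adjusted p 0.00661), 0.91 in Ppm1g_R (adjusted p 0.0322) and 0.92 in Ppp2r1b_R (adjusted p 0.041). These differences share the Ctrl_R arrays. Those on the Chek1_R-labelled arrays and in Ppm1g_R are fitted values against arrays with Dox on which Pdgfra was undetected. Those in Bub1b_R and Ppp2r1b_R missed the limma test without background correction (adjusted p 0.0539 and 0.0924). By the methods' t-test those in Bub1b_R, Ppm1g_R and Ppp2r1b_R missed it (adjusted p 0.0767, 0.157 and 0.288). The excess in Ppp2r1b_R also missed limma's test with arrays scaled to the same median (adjusted p 0.113) and without the detection filter (adjusted p 0.0602). With only the compared arrays in the fit, limma lost those in Ppm1g_R and Ppp2r1b_R (adjusted p 0.0813 and 0.208). The change also differed among the 4 regulator clones (F-test, adjusted p 0.00777). Without Dox the level in Bub1b_R was 1.39 above Ctrl_R (adjusted p 1.91e-06), and with Dox 0.23 above it (adjusted p 0.38). Condition means without Dox were 7.71 ± 0.19 (SD, n = 3) in Bub1b_R and 7.71 ± 0.08 on the Chek1_R-labelled arrays, 6.99 ± 0.30 in Ppp2r1b_R, 6.54 ± 0.20 in Ppm1g_R and 6.32 ± 0.27 in Ctrl_R. As neighbours in the order of 10, only the Chek1_R-labelled arrays and Ppp2r1b_R, both without Dox, had no overlap. That order crosses the array sets and is a description. The excess in Ppm1g_R missed the test without any 1 of its with Dox replicates 1 and 2 and without Dox replicate 2 (0.79 to 0.92), or Ctrl_R with Dox replicates 1 and 2 and without Dox replicates 2 and 3 (0.76 to 0.93). That in Ppp2r1b_R missed it without any 1 of its with Dox replicates 1 and 3 and without Dox replicate 1 (0.75 to 0.87), or the same 4 Ctrl_R arrays (0.77 to 0.94), and both missed it in a fit without the Chek1_R-labelled arrays (adjusted p 0.0559 and 0.0691).

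Markers of streak and mesoderm, which also carry Pdgfra, rose in the 4 regulator clones too. Of the 12 genes on a list of these (T, Mixl1, Evx1, Mesp1, Mesp2, Fgf8, Wnt3, Kdr, Msgn1, Tbx6, Foxf1 and Hand1), 11 have a row and 8 were tested. The list was chosen with earlier results of these data known, so its counts are a description. On Dox withdrawal 6 rose in Bub1b_R, 6 on the Chek1_R-labelled arrays, 5 in Ppm1g_R, 3 in Ppp2r1b_R and 2 in Ctrl_R, and none fell. Against the change in Ctrl_R 6, 6, 4 and 3 were higher in the 4 regulator clones, in that order. T, the streak factor Brachyury, rose by 4.44 log2 on the Chek1_R-labelled arrays, 2.31 in Bub1b_R, 1.90 in Ppp2r1b_R, 1.05 in Ppm1g_R and 0.75 in Ctrl_R, where the methods' t-test (adjusted p 0.173) and a fit of the compared arrays alone (adjusted p 0.0709) lost it and it was 0.49 at an offset of 50. Mixl1, a homeobox gene of the streak, was fitted as 3.24 higher in Bub1b_R, where 1 of 3 arrays with Dox detected it, and rose by at least 3.67-fold on the Chek1_R-labelled arrays and 3.42-fold in Ppm1g_R. The summed intensity of the list rose from a median of 1925 to 7470 in Bub1b_R, 558.5 to 5849 on the Chek1_R-labelled arrays, 1881 to 3539 in Ppm1g_R and 1111 to 3122 in Ppp2r1b_R, and was 384.6 and 442.5 in Ctrl_R. The probe with the most signal without Dox was that of T in Bub1b_R and Ppm1g_R and that of Fgf8 in the other clones, which does not rank the genes since probes differ in response, and Mesp2, Foxf1 and Hand1 were detected on 0 of 30 arrays. The part of such cells in the Pdgfra change was not tested.

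Fibroblasts also carry Pdgfra and had served as feeders. The study's methods describe sorting of the transduced cells for GFP when the clones were made, and, for the differentiation assay, a plating step that lets feeders attach and leaves the ESCs in the medium; whether the cells for the arrays went through that step is not given there, beyond that they were kept without feeders. Of 18 fibroblast genes on the list, Col1a2, Col5a2, Lum, Postn and Fap were detected on 0 of 30 arrays, and 13 were tested. On withdrawal Dcn, a matrix proteoglycan, rose in the 4 regulator clones: by 0.68 log2 in Bub1b_R, where 1 of 3 arrays with Dox detected it, and by at least 1.91-fold on the Chek1_R-labelled arrays, 1.25-fold in Ppm1g_R and 1.31-fold in Ppp2r1b_R, where it was undetected with Dox. Col1a1, a fibrillar collagen, rose by 1.06 on the Chek1_R-labelled arrays, 0.91 in Ppm1g_R and 1.03 in Ppp2r1b_R. Tagln, an actin-binding protein, rose by 0.62 in Bub1b_R and 1.04 in Ppm1g_R, and Acta2, smooth muscle actin, by 0.72 in Ppm1g_R. Thy1, a surface glycoprotein, changed by −0.81 on the Chek1_R-labelled arrays (adjusted p 1.25e-09) and was also the gene that fell in Ppm1g_R (−0.61). The counts that rose and fell were 2 and 0 in Bub1b_R, 3 and 1 on the Chek1_R-labelled arrays, 4 and 1 in Ppm1g_R, 3 and 0 in Ppp2r1b_R and 0 and 0 in Ctrl_R (0 by limma). For the difference from Ctrl_R they were 2 and 0, 3 and 1, 3 and 1, and 2 and 0 in the same order, and the Dcn change differed from Ctrl_R past both limits on the Chek1_R-labelled arrays alone. The summed intensity went from 11020 to 12900 in Bub1b_R, from 10330 to 8270 on the Chek1_R-labelled arrays, from 6801 to 9904 in Ppm1g_R, from 8034 to 7366 in Ppp2r1b_R and from 6901 to 6416 in Ctrl_R, and the Acta2 probe gave the most signal. The part of such cells in the Pdgfra change was not tested either. The change of Dcn in Bub1b_R lost its call without replicate 1 with Dox (0.54) or replicate 1 without Dox (0.58). Its calls in Bub1b_R, Ppm1g_R and Ppp2r1b_R were also lost without background correction (adjusted p 0.208, 0.0751 and 0.138) and by the methods' t-test (0.119, 0.0913 and 0.169), and at an offset of 50 they were short of 1.5-fold (0.40, 0.48 and 0.51). With only the compared arrays in the fit, that in Ppp2r1b_R was lost too (adjusted p 0.0611). Tagln in Bub1b_R lost its call without replicate 2 with Dox (0.52) or replicate 3 without Dox (0.51), without background correction (adjusted p 0.126), at an offset of 50 (0.50, short of 1.5-fold) and by the methods' t-test (adjusted p 0.0716). The methods' t-test also lost Col1a1 on the Chek1_R-labelled arrays and in Ppp2r1b_R (adjusted p 0.0532 and 0.113), and with arrays scaled to the same median Acta2 in Ppm1g_R was short of 1.5-fold (0.56).

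Among the genes of PDGF signalling, 4 of 5 listed (Pdgfa, Pdgfb, Pdgfc, Pdgfd and Pdgfrb) were tested. On the Chek1_R-labelled arrays the ligand Pdgfa rose by 0.81 log2 (adjusted p 2.15e-08) and Pdgfrb, the second receptor, which is on the fibroblast list too, by 0.61 (adjusted p 0.000448). In Ppp2r1b_R Pdgfrb rose by 0.73 (adjusted p 0.000137). No listed gene changed in Bub1b_R, Ppm1g_R or Ctrl_R by limma (Pdgfb and Pdgfrb passed the adjusted p in Bub1b_R, at 0.36 and 0.35). Against Ctrl_R, where Pdgfrb changed by −0.24, the change of 1 gene was higher in Bub1b_R (Pdgfrb, 0.59, adjusted p 0.0276, detected on 1 of 6 arrays of that clone), 2 on the Chek1_R-labelled arrays, 0 in Ppm1g_R and 1 in Ppp2r1b_R. The list's median was 0.56 on the Chek1_R-labelled arrays, 0.28 in Ppp2r1b_R, 0.15 in Bub1b_R and 0.03 in Ppm1g_R and Ctrl_R. Without replicate 3 with Dox (0.57) or replicate 1 without Dox (0.58), Pdgfrb on the Chek1_R-labelled arrays was short of 1.5-fold, as it was there and in Ppp2r1b_R at an offset of 50 (0.40 and 0.53).

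Amn fell on the Chek1_R-labelled arrays. It stood at 8.70, 8.62 and 8.57 with Dox and at 7.10, 7.12 and 7.13 without it, widely apart, and the change was −1.52 log2 (SE 0.09, adjusted p 1.84e-12). It differed from that in Ctrl_R by −1.48 (SE 0.13, adjusted p 4.77e-09). In Bub1b_R the level went from 8.29, 8.52 and 8.59 to 7.94, 8.04 and 8.03, without overlap, a change of −0.46 (adjusted p 0.000344) that was short of 1.5-fold and that differed from Ctrl_R by −0.43 (adjusted p 0.0242). In Ppm1g_R (−0.08), Ppp2r1b_R (0.02) and Ctrl_R (−0.03) the groups overlapped. Differences among the 4 regulator clones passed the F-test (adjusted p 6.19e-09).

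The highest Amn levels were in Ctrl_R, 9.24, 9.25 and 9.37 with Dox and 9.30, 9.30 and 9.17 without it. Bub1b_R lay below Ctrl_R by 1.25 without Dox (−1.25, adjusted p 1.77e-11) and by 0.82 with Dox (−0.82, adjusted p 6.54e-08). The means then followed the order Chek1_R-labelled arrays with Dox (8.63 ± 0.07, SD, n = 3), Bub1b_R with Dox (8.46 ± 0.15) and without Dox (8.00 ± 0.05), Ppp2r1b_R without (7.97 ± 0.08) and with Dox (7.94 ± 0.20), Chek1_R-labelled arrays without Dox (7.12 ± 0.01), and Ppm1g_R with (7.10 ± 0.08) and without Dox (7.02 ± 0.15). Neighbours overlapped except the Ctrl_R pair against the rest, Bub1b_R with against without Dox, and Ppp2r1b_R with Dox against the Chek1_R-labelled arrays without Dox. The last 3 of these overlapped, and the order crosses the array sets and is a description.

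Dab2, the adaptor, was detected throughout. With its first probe Ctrl_R stood at 8.41, 8.34 and 8.06 with Dox and at 8.71, 8.72 and 8.88 without it. Bub1b_R stood at 9.07, 8.90 and 9.01 and then 9.48, 9.52 and 9.48. Both changes were 0.50 log2 (SE 0.08), with no overlap, past the adjusted p (0.00022 and 2.5e-05) and short of 1.5-fold. The second probe gave 0.39 and 0.55. With arrays scaled to the same median, the Bub1b_R change passed 1.5-fold (0.60 and 0.65 on the 2 probes). On the second probe it also passed without Bub1b_R with Dox replicate 1 (0.60, limma's adjusted p 4.11e-05). Bub1b_R was higher than Ctrl_R by 0.72 both with (adjusted p 4.25e-08) and without Dox (adjusted p 1.91e-08). Changes of 0.38 on the Chek1_R-labelled arrays and 0.35 in Ppp2r1b_R passed the adjusted p as well, short of 1.5-fold.

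Ppm1g_R was the clone where Dab2 went the other way. It stood at 9.88, 9.76 and 9.93 with Dox and at 9.64, 9.66 and 9.64 without it (−0.21, adjusted p 0.0485), and the second probe went from 8.90, 8.87 and 8.71 to 8.37, 8.56 and 8.56 (−0.33, adjusted p 0.00478). No array of these conditions overlapped on either probe, and both changes were short of 1.5-fold. The change minus that in Ctrl_R was −0.71 (SE 0.11, adjusted p 9.11e-05) on the first and −0.73 (SE 0.12, adjusted p 0.000181) on the second probe. Among the 4 regulator clones the change differed on both probes (F-test, adjusted p 0.00012 and 2.05e-05). The means on the first probe ran from Ppp2r1b_R without (10.46) and with Dox (10.11), through the Chek1_R-labelled arrays without Dox (9.88), Ppm1g_R with (9.86) and without Dox (9.65), the Chek1_R-labelled arrays with Dox (9.50) and Bub1b_R without (9.49) and with Dox (8.99), to Ctrl_R without (8.77) and with Dox (8.27). Of 9 neighbouring pairs 2 overlapped, the Chek1_R-labelled arrays without Dox with Ppm1g_R with Dox, and the Chek1_R-labelled arrays with Dox with Bub1b_R without Dox. Every condition of Bub1b_R and Ctrl_R came after those of the other array set. This order therefore cannot be told apart from the sets and is a description.

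Counted against Ctrl_R, 4 members differed in Bub1b_R (Gata6, Sox17, Sox7 and Pdgfra, where 5.15% of all probes differed), 2 on the Chek1_R-labelled arrays (Pdgfra and Amn, 8.99%), 2 in Ppm1g_R (Dab2 and Pdgfra, 5.27%) and 1 in Ppp2r1b_R (Pdgfra, 3.28%). Sox7 entered the test mainly through Bub1b_R without Dox, so the filter leaned towards a difference there. Apart from Sox7, the genes counted in that clone are Gata6, Sox17 and Pdgfra. Bub1b_R against Ctrl_R gave 3 members without Dox (Dab2 and Pdgfra higher, Amn lower), where 22.6% of all probes differed, and 3 with Dox (Dab2 higher, Gata6 and Amn lower), where 12.7% did. The 4 in Bub1b_R became 2 or 3 whichever of the 12 arrays was left out, 2 without Bub1b_R with Dox replicate 3, Ctrl_R with Dox replicate 2 or Ctrl_R without Dox replicate 3.

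Partners of Amn and Dab2 in endocytosis moved little. Of 8 listed genes 6 were tested, and none rose in any clone. Fcgrt, the neonatal Fc receptor, fell by 0.69 log2 in Bub1b_R (−0.69, adjusted p 0.000252), but the difference from Ctrl_R missed the test (−0.54, adjusted p 0.0518), and at an offset of 50 the fall was short of 1.5-fold (−0.53). Dab1, the neuronal relative of Dab2, fell by 0.63 on the Chek1_R-labelled arrays (−0.63, adjusted p 0.00153), and by 0.52 without replicate 2 with Dox (−0.52), short of 1.5-fold, as at an offset of 50 (−0.48). It was the 1 gene of the list lower in excess of Ctrl_R (−0.73, adjusted p 0.0135). The list's median lay between −0.31 and 0.06 in the 5 clones. Lrp2 (megalin), which works with Cubn, did not pass the detection filter.

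Other endoderm factors and GATA or SOX partners numbered 15 on the list, of which 14 have a row and 10 were tested. Gata3, a GATA factor of trophoblast and other lineages, rose by 1.14 log2 in Bub1b_R, 1.17 on the Chek1_R-labelled arrays and 0.85 in Ppp2r1b_R (adjusted p 9.94e-07, 3.4e-07 and 7.08e-05). In Ppp2r1b_R the difference from Ctrl_R missed the test (0.54, adjusted p 0.0892), and the methods' t-test lost the rise (adjusted p 0.116). Zfpm2, a cofactor of GATA factors, rose by 0.73 in Bub1b_R and 0.96 on the Chek1_R-labelled arrays (adjusted p 0.00012 and 1.77e-06). Without background correction both were lost (adjusted p 0.265 and 0.109), and at an offset of 50 that in Bub1b_R was short of 1.5-fold (0.48). On the Chek1_R-labelled arrays Gata3 and Zfpm2 were each detected on 1 of 3 arrays with Dox. Hnf4a, a nuclear receptor of visceral endoderm, changed by −0.59 in Ppp2r1b_R (adjusted p 0.00223), beside −0.50 in Ctrl_R (adjusted p 0.0226), and the difference between these clones was −0.09 (adjusted p 0.836). In Ppp2r1b_R it changed by −0.48 to −0.53, short of 1.5-fold, without its replicate 3 with Dox or replicate 1 or 3 without Dox, with arrays scaled to the same median and, at −0.40, at an offset of 50, and it missed the test with only the compared arrays in the fit (adjusted p 0.0577) and the methods' t-test (adjusted p 0.144). None of the 10 changed in Ppm1g_R or Ctrl_R by limma. In excess of Ctrl_R, 2 genes were higher in Bub1b_R, 2 on the Chek1_R-labelled arrays, 1 in Ppm1g_R (Gata2, 0.74, adjusted p 0.00511) and 0 in Ppp2r1b_R, and none was lower. List medians were 0.04 in Bub1b_R, −0.05 on the Chek1_R-labelled arrays, 0.15 in Ppm1g_R, 0.10 in Ppp2r1b_R and −0.16 in Ctrl_R.

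Visceral endoderm genes moved in both directions. Of 19 listed, 18 have a row and 9 were tested. Cited1, a transcriptional coregulator, rose by 2.12 log2 on the Chek1_R-labelled arrays, 1.02 in Bub1b_R and 1.19 in Ppp2r1b_R, and exceeded its level with Dox at least 1.52-fold in Ctrl_R (adjusted p 9.24e-11, 2.06e-05, 4.01e-06 and 0.00143). Spink3, a trypsin inhibitor, rose by 0.74 in Bub1b_R and 0.62 in Ctrl_R. Apoe, an apolipoprotein, changed by −0.60 in Bub1b_R and −0.65 on the Chek1_R-labelled arrays, and Trf, transferrin, by −1.05 on the Chek1_R-labelled arrays and −0.62 in Ppm1g_R. The counts that rose and fell were 2 and 1 in Bub1b_R, 1 and 2 on the Chek1_R-labelled arrays, 0 and 1 in Ppm1g_R, 1 and 0 in Ppp2r1b_R, and 2 and 0 in Ctrl_R, with medians from −0.26 to −9e-04. In excess of Ctrl_R the counts were 0 and 0 in Bub1b_R, 1 and 3 on the Chek1_R-labelled arrays, 0 and 1 in Ppm1g_R and 0 and 1 in Ppp2r1b_R, so that none of the Bub1b_R changes differed from the control past both limits (Apoe differed by −0.42, adjusted p 0.0162). Short of 1.5-fold were Spink3 in Ctrl_R without replicate 2 with Dox or replicate 3 without Dox (0.57 in both), Apoe in Bub1b_R without replicate 3 with (−0.55) or without Dox (−0.57), and Trf in Ppm1g_R without replicate 2 with (−0.58) or replicate 3 without Dox (−0.57). Scaling arrays to the same median left Apoe short of it in both clones (−0.54 in each), and an offset of 50 left Trf in Ppm1g_R (−0.39) and Cited1 in Ctrl_R (0.50) short. The methods' t-test lost Cited1 in Ppp2r1b_R and Ctrl_R and Spink3 in Ctrl_R (adjusted p 0.0725, 0.148 and 0.0988), and a fit of the compared arrays alone lost Cited1 in Ctrl_R (adjusted p 0.0576). Without Dox, Trf was detected on 2 of 3 Chek1_R-labelled arrays and 1 of 3 Ppm1g_R arrays.

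Parietal endoderm and basement membrane genes changed in few cases. Of 14 listed genes 13 were tested. Snai1, a zinc finger repressor of epithelial genes, rose by 1.14 log2 in Bub1b_R and 0.95 on the Chek1_R-labelled arrays (adjusted p 4.41e-10 and 2.98e-09). Col4a1, a basement membrane collagen, rose by 0.68 in Bub1b_R and 0.64 in Ppm1g_R (adjusted p 1.23e-08 and 4.4e-08). Serpinh1, a collagen chaperone, rose by 0.76 and Lama1, a laminin chain, changed by −0.59 on the Chek1_R-labelled arrays (adjusted p 4.95e-07 and 1.19e-05). None changed in Ppp2r1b_R or Ctrl_R by limma. In excess of Ctrl_R, 1 was higher in Bub1b_R (Snai1), 2 on the Chek1_R-labelled arrays (Snai1 and Serpinh1), 1 in Ppm1g_R (Snai1, 0.84) and 0 in Ppp2r1b_R, and none was lower. Col4a1 exceeded Ctrl_R by 0.55 in Bub1b_R and 0.52 in Ppm1g_R, and Lama1 differed by −0.48 (adjusted p 0.000135, 0.000256 and 0.0082), each short of 1.5-fold. Medians were 0.23 in Bub1b_R, −0.07 on the Chek1_R-labelled arrays, 0.14 in Ppm1g_R, 0.18 in Ppp2r1b_R and 0.05 in Ctrl_R. Lama1 was short of 1.5-fold without replicate 1 (−0.58) or 2 with Dox (−0.53) or replicate 2 without Dox (−0.53), with arrays scaled to the same median (−0.48) and at an offset of 50 (−0.57). Col4a1 in Ppm1g_R was short of it with that scaling (0.55).

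Definitive endoderm and anterior streak genes numbered 13 on the list, of which 12 have a row and 10 were tested. In Bub1b_R 5 rose and 0 fell, on the Chek1_R-labelled arrays 5 rose and 1 fell, in Ppm1g_R 4 rose and 1 fell, in Ppp2r1b_R 2 rose and 0 fell, and in Ctrl_R 0 changed by limma. In excess of Ctrl_R, 4 were higher and 0 lower in Bub1b_R, 5 and 1 on the Chek1_R-labelled arrays, 2 and 1 in Ppm1g_R and 1 and 1 in Ppp2r1b_R, with list medians of 0.53, 0.67, 0.24 and −0.13. Lhx1, a LIM homeobox factor, was undetected with Dox in 3 clones and was at least 5.45-fold higher without it in Bub1b_R, 3.37-fold on the Chek1_R-labelled arrays and 1.21-fold in Ppm1g_R (adjusted p 1.18e-12, 1.49e-12 and 3.5e-05). Eomes, a T-box factor, was at least 2.53-fold higher in Bub1b_R and 2.08-fold on the Chek1_R-labelled arrays (adjusted p 5.18e-12 and 9.45e-12), and was fitted as 1.18 log2 higher in Ppm1g_R, where 1 of 3 arrays with Dox detected it. That call was lost without background correction (adjusted p 0.202), and the Lhx1 call in Ppm1g_R at an offset of 50 (0.54) and by the methods' t-test (adjusted p 0.0609). In Ppp2r1b_R Eomes also counted as changed (adjusted p 0.000155), but was detected on 0 of 6 arrays and has no fold, and an offset of 50 and the methods' t-test (adjusted p 0.0555) lost it.

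Gsc, the organizer homeobox gene, rose by 1.35 log2 in Bub1b_R and 1.82 on the Chek1_R-labelled arrays (adjusted p 1.1e-09 and 1.36e-12). Krt19, a keratin of simple epithelia, rose by 1.27, 1.42, 0.72 and 1.26 in Bub1b_R, on the Chek1_R-labelled arrays, in Ppm1g_R and in Ppp2r1b_R. Otx2, a homeobox factor of the anterior epiblast and visceral endoderm, changed by −0.77 in Ppm1g_R (adjusted p 1.65e-08). The other genes counted, named after their values were seen, were the chemokine receptor Cxcr4 (1.04 in Bub1b_R, 1.22 on the Chek1_R-labelled arrays and 0.67 in Ppm1g_R) and Otx2 on the Chek1_R-labelled arrays (−0.87). With Dox Cxcr4 was detected on 2 of 3 Bub1b_R and 1 of 3 Chek1_R-labelled arrays. Its change differed from Ctrl_R past both limits on the Chek1_R-labelled arrays alone, and the Krt19 change did in each regulator clone except Ppm1g_R. The list's median was 0.63 in Bub1b_R, 0.78 on the Chek1_R-labelled arrays, 0.40 in Ppm1g_R, 0.16 in Ppp2r1b_R and 0.17 in Ctrl_R. These genes are shared with streak cells, and the streak markers given beside Pdgfra rose in the same clones; their part in these changes was not tested. Trophoblast genes gave 1 of 4 tested as risen in each regulator clone, Cdx2, by 1.73 in Bub1b_R, 3.97 on the Chek1_R-labelled arrays, 1.21 in Ppm1g_R and 1.54 in Ppp2r1b_R, and Cdx2 is also a gene of the posterior streak. The change of Cdx2 exceeded that in Ctrl_R in each of these clones, and that of Krt7, a keratin, in Ppp2r1b_R (by 0.92). Elf5, Prl3d1 and Hand1 of that list were detected on 0 of 30 arrays, and its summed intensity, with the most signal from the Tfap2c probe, had condition medians of 4695 to 8613.

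Over the 30 arrays, with each clone's mean taken off, the genes whose levels followed a member most closely were found by Pearson's r among 11177 genes. The 30 points share arrays, clones and Dox condition, so these values are a description. Pdgfra was followed by Vstm2b (r 0.962), Vldlr (0.960), a lipoprotein receptor, and Wnt5a (0.957), a Wnt ligand. Gata6 was followed by Nudt11 (0.905), Zfp608 (0.875) and 9430069J07Rik (0.872). Amn was followed by Cnnm2 (0.935), Icam1 (0.932), an adhesion molecule, and Aqp3 (0.924), a water and glycerol channel. For Sox17 (Snurf, 0.854) and Sox7 (5730502D15Rik, 0.699) the closest values were lower.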

How the data were processed

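Total RNA of 30 ESC samples was labelled and hybridized to Illumina mouse WG-8 v2 arrays. The authors deposited a table of probe intensities on a linear scale with a detection p-value beside each; it was deposited as not normalized, and some of its intensities are below 0. The submitters' processing notes name lumi with no version. The study's methods refer to an earlier description for their normalization and for how differentially expressed genes were found. They name t-tests for the experiments in general, not for the arrays in particular. Some detection p-value cells hold a date in place of a number (46 on Ppm1g_R without Dox replicate 2, 14 on Bub1b_R without Dox replicate 2), and these were converted back or taken from the probe with the nearest signal.

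Intensities were background-corrected, quantile-normalized and put on the log2 scale with neqc (offset 16) of limma 3.58.1 in R 4.3.3. Probes detected (p under 0.05) on 3 or more arrays were fitted as 10 condition means over 30 arrays (20 residual degrees of freedom) with lmFit and eBayes, and p-values were adjusted over 15151 probes. The fit and the rule for a changed probe were tested on simulated normalized values. Background correction, normalization and the detection filter were not part of that test. Groups came from the sample labels. The members and gene lists were chosen with earlier results of these data known. Named are all members, the 4 targets, up to 4 changed genes per list and clone by size of change, and for each changed member the 3 genes most alike. Other backgrounds, scalings, offsets, filters, fold limits, fits and the methods' t-test were tried, and each array was left out in turn. The F-test among clones and the fit without the Chek1_R-labelled arrays were added after the data were seen.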

Additional observations from a re-analysis of the deposited data

Results flagged for a closer look

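For 6 members the change on Dox withdrawal in a regulator clone differed from that in Ctrl_R by at least 1.5-fold and past limma's test of the difference itself (Benjamini-Hochberg over all probes). These comparisons share the Ctrl_R arrays. In Bub1b_R the change exceeded that of Ctrl_R by 0.9864 log2 for Gata6, 1.1616 for Pdgfra, 0.7862 for Sox17 and 0.6436 for Sox7, where the last 2 are fitted values against Bub1b_R arrays with Dox on which neither gene was detected, and Sox7 entered the test mainly through Bub1b_R without Dox. On the Chek1_R-labelled arrays it exceeded it by 2.0716 for Pdgfra, and for Amn the difference was −1.4849. For Amn in Bub1b_R the difference passed the test (−0.43, adjusted p 0.0242) short of 1.5-fold. In Ppm1g_R the difference was 0.9116 for Pdgfra, and −0.7068 and −0.7273 for the first and second Dab2 probes. In Ppp2r1b_R it was 0.9238 for Pdgfra. The Pdgfra values for the Chek1_R-labelled arrays and for Ppm1g_R are fitted against arrays with Dox on which Pdgfra was undetected. Groups of 3 arrays were too small for a test of single outlying arrays.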

How the results depend on the processing

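The 44 member changes and differences with an adjusted p under 0.05, and such values of the other named genes, were recomputed, and none of them reversed under the alternatives tried; those that missed the adjusted p were not recomputed. Of the members' recomputed values, 650 kept their side of the threshold, 60 lost and 5 gained a call, and of those of the other named genes 1133 kept it and 72 lost a call, most often at an offset of 50 (18) and by the methods' t-test (16). Counts of changed members moved as follows. A share of all probes is given for the fold limits and the methods' t-test alone, so counts at other settings are not read against one. At an offset of 50, 2 members changed in Bub1b_R and 2 in excess of Ctrl_R. With a limit of 2-fold the counts, each with the share of all tested probes called by that rule, were 2 in Bub1b_R (1.01%), 1 for Bub1b_R minus Ctrl_R (0.871%), 0 for Ppm1g_R minus Ctrl_R (0.805%), 0 for Ppp2r1b_R minus Ctrl_R (0.495%), and 2 without (8.07%) and 0 with Dox (3.32%) for Bub1b_R against Ctrl_R. With no fold limit they were 6 in Bub1b_R (24.4%), 4 on the Chek1_R-labelled arrays (30.9%), 3 in Ppm1g_R (23.4%), 3 in Ppp2r1b_R (25.3%), 1 in Ctrl_R (7.55%), 5 for Bub1b_R minus Ctrl_R (12.2%), and 5 without (52.9%) and 4 with Dox (39.9%) for Bub1b_R against Ctrl_R. The methods' t-test gave 3 in Bub1b_R (Sox7 lost; 4.48%), 0 in Ppp2r1b_R (1.36%), 2 for Bub1b_R minus Ctrl_R (3.91%), 1 for Ppm1g_R minus Ctrl_R (3.89%) and 0 for Ppp2r1b_R minus Ctrl_R (1.16%). Without background correction the count was 1 for Bub1b_R minus Ctrl_R. With scaling to 1 median, without the detection filter and with only the compared arrays in the fit it was 3 (Sox7 lost). Scaling to 1 median left 4 in Bub1b_R, with Sox7 lost and Dab2 gained, and 2 for Bub1b_R against Ctrl_R with Dox (Gata6 lost), as did an offset of 50 (Gata6 lost, and the second Dab2 probe short of 1.5-fold). The strict filter gave 3 in Bub1b_R and 3 in excess of Ctrl_R. The single call for Ppp2r1b_R minus Ctrl_R became 0 without background correction, with scaling to 1 median, without the detection filter, with only the compared arrays in the fit and without the Chek1_R-labelled arrays, and the last 2 gave 1 for Ppm1g_R minus Ctrl_R. Leaving out 1 array gave 3 to 4 in Bub1b_R, 2 on the Chek1_R-labelled arrays, 1 in Ppm1g_R, 1 to 2 in Ppp2r1b_R and 0 in Ctrl_R, and for the differences from Ctrl_R 2 to 3 (Bub1b_R), 2 (Chek1_R label), 1 to 2 (Ppm1g_R) and 0 to 2 (Ppp2r1b_R). Bub1b_R against Ctrl_R gave 3 without Dox and 3 to 4 with it. Scaling to 1 median moved the median of all probes for Bub1b_R against Ctrl_R without Dox by 0.11. Replicate numbers did not pair the arrays (deviations of same-numbered arrays correlated at −0.0835 to 0.131, over 0.1 in 1 of 15 pairs, and 6 of 15 arrays with Dox correlated best with their own number), and the replicate block left the counts at 4, 2, 1, 1 and 0 on withdrawal, 4, 2, 2 and 1 in excess of Ctrl_R, and 3 and 3 for Bub1b_R against Ctrl_R. Signal near background limits Gata4, Sox7 and Sox17: 2 of these (Gata4 and Sox7) had no tested probe under the strict filter, which kept 6 member probes.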
